A study of Mus musculus with 18 samples.

Results

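The receptors for serotonin, dopamine, noradrenaline, acetylcholine, histamine and adenosine that couple to G proteins were followed in RNA pulled down from orexin transgenic mouse brain and in whole brain RNA. Members were all probe sets annotated to a single gene symbol of these families, apart from the ion channel receptors for serotonin and acetylcholine. The rule gave 42 of the 45037 probe sets tested, covering 25 of 18193 genes. These were 20 probe sets of 11 serotonin receptor genes, 6 of 4 dopamine receptor genes, 5 of 2 alpha adrenergic receptor genes, 4 of 3 muscarinic receptor genes, 5 of 4 histamine receptor genes and 2 of 1 adenosine receptor gene. A further 14 genes that the rule covers had no probe set under a single symbol in the annotation used here and were not analysed. Among them are Adora1, Adora2a, Adra2a, Chrm2, Drd5 and Htr2a.

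Both groups came from transgenic mice on a C57BL/6J X DBA/2J background, aged 11 and 14 weeks, with no age given per sample. The mice carried a bacterial artificial chromosome in which the coding sequence of the orexin gene (Hcrt) had been replaced by a flag-tagged rat poly(A)-binding protein and, after an internal ribosome entry site, eGFP. The first group (IP, 9 arrays) held RNA that was crosslinked to the tagged protein with formaldehyde and captured with anti-flag beads. The second (WB, 9 arrays) held total RNA of whole brain, which contains the cells of every region. How many founder lines were used and whether each array came from its own mouse are not given in the sources used here, so the tests speak only of the variation among these arrays, some of which may be technical.

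Orexin neurons of the lateral hypothalamus sustain wakefulness, and the transmitters considered here are the main modulators of arousal. Serotonin acting on Htr1a is known to inhibit orexin neurons, acetylcholine is known to excite a part of them through Chrm3, and noradrenaline and adenosine are known to inhibit them through Adra2a and Adora1. The receptors fall into classes by the G protein they engage. Those coupled to Gs raise cyclic AMP, those coupled to Gi and Go lower it and open potassium channels, and those coupled to Gq activate phospholipase C. In bulk tissue the receptor messages come from many cell types, and Hcrt itself, the marker of the targeted cells, had a log2 mean of 8.23 in IP and 8.02 in WB with a difference of 0.21 (SE 0.28, limma adjusted p = 0.568).

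Intensities are the deposited MAS5 values in arbitrary units. Differences are IP minus WB on the log2(intensity + 16) scale, which understates changes of dim probe sets, and a probe set is called higher or lower at an adjusted p under 0.05 in limma across all probe sets. The IP arrays had a lower median intensity (153.3 to 202.9) than the WB arrays (220.5 to 266.7), although the trimmed means were alike. The Gapdh control probe sets at the transcript's 3′ end exceeded those at its 5′ end by 3.33 to 5.45 in IP and by 1.33 to 1.78 in WB (log2), without overlap, while for Actb these ranges overlapped. In IP replicates 2, 5, 6 and 8 the mean of the hybridization controls was 14.51 to 15.31, against 13.05 to 13.95 on the other 14 arrays. The part of these differences in the results below was not tested. Beside the deposited scaling, 3 others were tried, namely quantile normalization, centring each array on its median (median scaling) and setting the arrays equal on the hybridization controls (hybridization scaling).

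Most receptor messages were not called different between the immunoprecipitate and whole brain, and most of the calls were lower in IP. Of the 42 probe sets 15 were called in either direction, where 45.0% of all probe sets were. In 3 the call was higher, where 14.2% of all probe sets were, and 12 were called lower, where 30.8% were. The members' shares of 7.14% and 28.6% were at or below these background shares, so the counts are no result about receptors as a class. Their median difference was -0.26, and that of all probe sets was -0.23. Calls with a change of at least 2-fold numbered 0 higher (7.72% over all probe sets) and 6 lower (21.9%). As means over their probe sets, 1 of the 25 genes was higher (12.5% of all genes) and 7 were lower (29.0%). By probe set, 9 genes had only lower calls, 1 only a higher call, 2 had calls in both directions and 13 had none. The comparison sets captured RNA against total RNA of whole brain, so a lower value in IP is no count of cells. Within the whole brain RNA, fewer cells of a type and less RNA per cell cannot be told apart.

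Many of these probe sets were dim. As a guide, the median signal of 44 olfactory receptor probe sets, a family with little known expression in most brain cells, had a 95th percentile of 156 in IP and 130 in WB. Of the 42 members, 15 had a median above that level in both groups, 9 only in WB, 1 only in IP and 17 in neither. Of the 15 calls 2, those of Chrm4 and of 1 probe set of Htr7, lay below it in both groups. Drd2, Chrm3, Htr2b, Chrm1 (1450833_at), Htr1d (1440741_at) and Htr1f (1450548_at), all called lower, had a median below it in IP only. The size of these falls is therefore uncertain. Among the 18 members with a mean log2 value under 7, 0 were called higher and 4 lower (7.32% and 20.2% of all probe sets in that range). Between 7 and 9 these were 2 and 8 of 20 (7.99% and 38.0%), and at 9 or more 1 and 0 of 4 (34.5% and 33.3%). The spread was wider in IP, with a median SD over the members of 0.73 against 0.41 in WB. The larger SD was that of IP for 32 of the 42.

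Among the serotonin receptor probe sets, the largest rise and the largest fall under the deposited scaling both belonged to Htr2c. Htr2c is a Gq-coupled receptor known for its high level in choroid plexus and for its part in hypothalamic control of feeding. Its probe set 1435513_at lay at 1377 to 2329 in IP with a median of 1612, and at 720 to 1125 in WB with a median of 924. All 9 IP arrays were thus above all 9 WB arrays (5.22% of all probe sets), and the difference was 0.83 (SE 0.13, adjusted p = 1.35e-05), or 1.78-fold. The other probe set, 1450477_at, lay at 21.3 to 464 in IP with a median of 180, and at 619 to 770 in WB with a median of 718. Here all 9 IP arrays were below all 9 WB arrays (10.3% of all probe sets), and the difference was -2.15 (SE 0.34, adjusted p = 1.38e-05). The WB values of this probe set were tight (log2 SD 0.09) while those of IP were widely spread (SD 1.13), with the lowest value in IP replicate 8. As the mean over both probe sets Htr2c was lower in IP by 0.66 (a difference of -0.66, adjusted p = 0.00223). Under quantile and median scaling both calls held, but under hybridization scaling 1435513_at turned to -0.11 (adjusted p = 0.676).

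Htr1b, a Gi-coupled receptor that acts as an autoreceptor on serotonergic terminals, also had calls in both directions. Probe set 1422288_at had a median of 278 in IP (188 to 365) and 431 in WB (306 to 616). Its difference was -0.62 (SE 0.19, adjusted p = 0.00889), and all 9 IP arrays were below the WB median. Probe set 1442077_at had a median of 339 in IP (144 to 510) and 203 in WB (136 to 271), with 6 IP arrays above the highest WB array. Its difference of 0.59 (SE 0.23, adjusted p = 0.0386) lost its call in 9 of the 18 fits that left out 1 array (0.52 to 0.73) and turned to -0.35 under hybridization scaling. For 1422288_at, quantile (-0.26) and median scaling (-0.19) ended the call. The mean over both probe sets differed by -0.01 (adjusted p = 0.963).

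Htr1a, the inhibitory receptor described on orexin neurons and on serotonergic cell bodies, was not called on either of its probe sets. On 1438710_at the median was 206 in IP (105 to 369) and 258 in WB (146 to 354), with a difference of -0.13 and a 95% interval from -0.67 to 0.40 (adjusted p = 0.712). On 1450219_at it was 88.7 in IP (18.6 to 270) and 120 in WB (71.7 to 263), with a difference of -0.44 and an interval from -1.21 to 0.33 (adjusted p = 0.359). The groups overlapped on both. The second probe set was dim, with medians under the olfactory receptor level in both groups, so its interval sets no limit on a change. Both values moved with the scaling, since quantile scaling gave 0.26 and 0.05 and hybridization scaling -1.07 and -1.38.

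The remaining Gi-coupled serotonin receptors gave lower or no calls. Htr1d, a relative of Htr1b, was lower on 1440741_at, with a median of 101 in IP (34.1 to 448) and 233 in WB (180 to 283). Of the 9 IP arrays 7 lay below the lowest WB array and 2 above the highest, and the difference was -0.98 (SE 0.36, adjusted p = 0.0308). That call was lost in 6 of the 18 fits without 1 array (-1.21 to -0.81). The other 2 probe sets of Htr1d were not called (0.20 and 0.38). Htr1f had a median of 107 in IP (8.27 to 315) and 212 in WB (172 to 345) on 1450548_at, a difference of -1.20 (SE 0.40, adjusted p = 0.0180), while 1440422_at was not called (0.11). Quantile scaling (-0.50 and -0.77), median scaling (-0.55 and -0.77) and leaving out IP replicates 2, 5, 6 and 8 together (-0.79 and -0.47) each ended the calls of Htr1d and Htr1f. Htr5a, which couples to Gi, and Htr5b, its close relative, had 3 probe sets without a call, with differences of -0.44, -0.22 and -0.30.

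Htr2b, a Gq-coupled receptor best known from heart and gut, was lower in IP. The IP arrays lay at 5.91 to 234 with a median of 59.4, and the WB arrays at 98.6 to 222 with a median of 132. All but 1 IP array were below the WB median, and that array, IP replicate 2, was above every WB array. The difference was -1.30 (SE 0.37, adjusted p = 0.00553), which was no call under quantile (-0.83, adjusted p = 0.0806) or median scaling (-0.88, adjusted p = 0.0580).

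Of the Gs-coupled serotonin receptors only Htr7 had a call, on 1 of its 2 probe sets. Htr7, expressed in thalamus, hypothalamus and the circadian clock nucleus, was lower on 1422235_at, where the IP median was 31.7 (12.9 to 55.1) and the WB median 112 (33.2 to 173). All 9 IP arrays were below the WB median, and 5 were below the lowest WB array. Both medians lay under the olfactory receptor level. The difference of -1.28 (SE 0.29, adjusted p = 0.000744) kept its call under each of the 3 other scalings, at -0.74, -0.86 and -2.22. Its second probe set, 1435332_at, had a median of 447 in IP (117 to 1258) and 734 in WB (394 to 928) and was not called (-0.47, adjusted p = 0.214). As the mean over both, Htr7 had a difference of -0.87 (adjusted p = 0.00403). Htr4 gave -0.06 and -0.22 on its 2 probe sets and Htr6 gave 0.32, none of them called. The IP values of Htr6 ran from 12.6 to 293 and those of WB from 25.4 to 233.

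**Figure D1:**
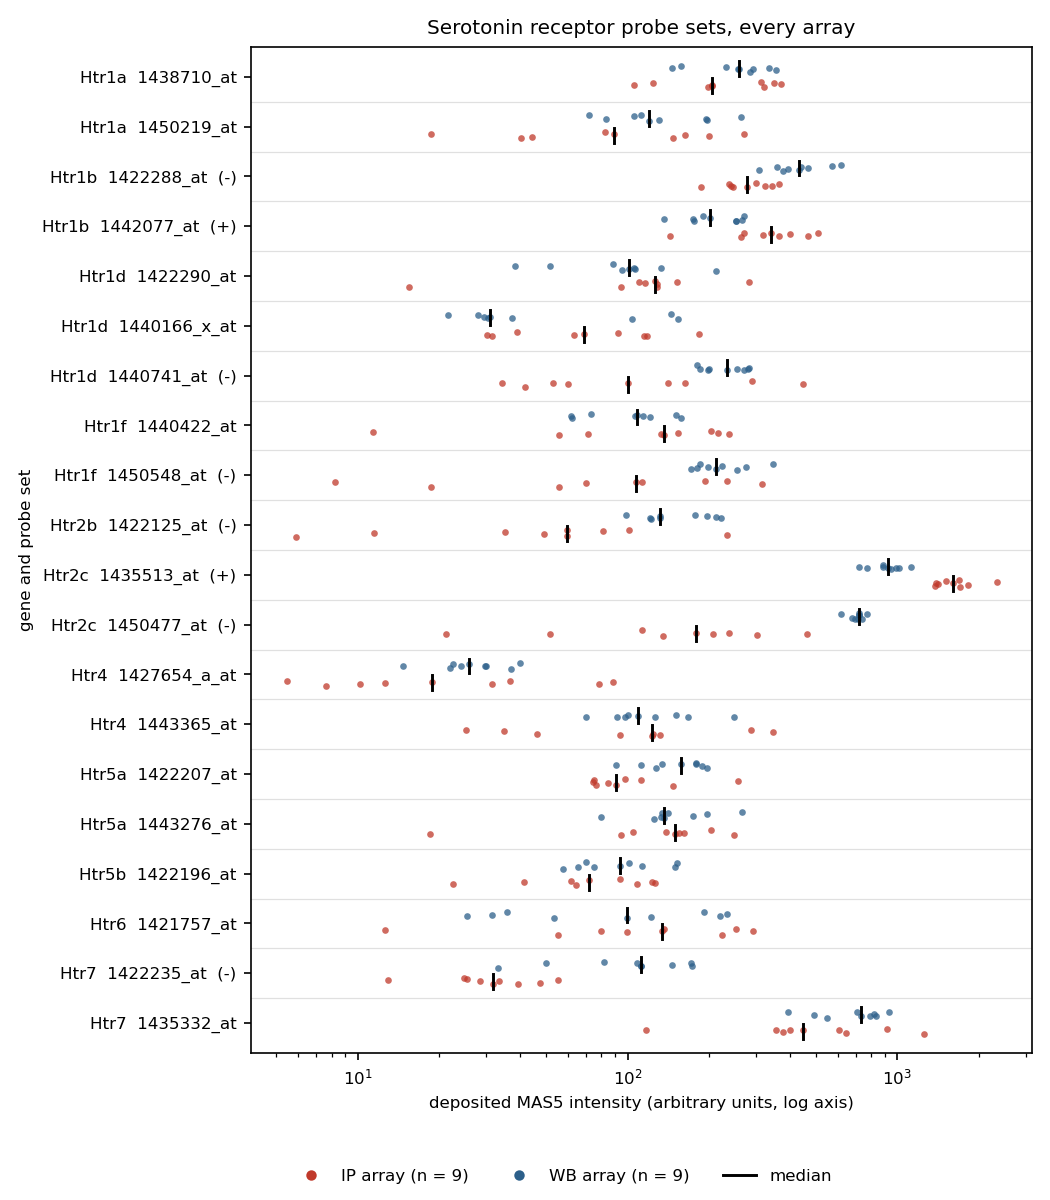
Deposited MAS5 intensity (log axis, arbitrary units) of the 20 serotonin receptor probe sets on each of the 9 IP and 9 WB arrays, with the median of each group as a black bar; (+) and (-) mark probe sets called higher and lower in IP. The 2 probe sets of Htr2c are separated without overlap in opposite directions, and those of Htr1b are shifted in opposite directions with overlap.

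All 4 muscarinic probe sets, on 3 genes, were called lower in IP, where 30.8% of all probe sets were. Chrm1, the Gq-coupled receptor of cortical and hippocampal neurons, had on 1439611_at a median of 308 in IP (21.3 to 646) and 842 in WB (658 to 992). No IP array reached the lowest WB array, and the difference was -1.88 (SE 0.41, adjusted p = 0.000567), or 3.69-fold. On 1450833_at its median was 57.5 in IP (37.8 to 157) and 131 in WB (69.0 to 391), a difference of -1.09 (SE 0.33, adjusted p = 0.00834). Chrm1 was the only one of the 14 genes with several probe sets on which every probe set was called lower. Chrm3, the Gq-coupled receptor through which acetylcholine excites orexin neurons, had a median of 154 in IP (31.3 to 282) and 280 in WB (199 to 349). In 6 IP arrays it was below the lowest WB array, and the difference was -0.99 (SE 0.31, adjusted p = 0.0105). Chrm4, the Gi-coupled receptor of striatal neurons, lay at 7.64 to 19.3 in IP and 16.2 to 37.8 in WB, both dim, with a difference of -0.54 (SE 0.18, adjusted p = 0.0156).

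Only the first Chrm1 probe set kept its call under each of the 3 other scalings (-1.59, -1.46 and -2.83). The second Chrm1 probe set, Chrm3 and Chrm4 stayed below 0 but were not called under quantile (-0.53, -0.55 and -0.26) or median scaling (-0.66, -0.57 and -0.11). Markers of cholinergic neurons, which release the ligand, were read on the brightest probe set of each gene. So read, 21.7% of all genes were called in each direction. Of the 3 measured cholinergic markers 0 were higher and 1 was lower, with a median of -0.80. That gene, Slc18a3, the vesicular acetylcholine transporter, differed by -1.25 (adjusted p = 0.00128). It was dim, with a mean log2 level of 5.26 in IP and 6.51 in WB. The olfactory receptor 95th percentile was 7.43 in IP and 7.19 in WB on that scale. The mean log2 level of the list was 5.03 to 7.10 in IP and 6.37 to 7.32 in WB, and its part in the muscarinic values was not tested.

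Dopamine receptors had 1 call in 6 probe sets, a lower one, where 30.8% of all probe sets were called lower. Drd2, the Gi-coupled receptor of striatopallidal neurons and dopaminergic cells, had a median of 93.7 in IP (27.2 to 207) and 153 in WB (101 to 289). Of the IP arrays 6 were below the lowest WB array, and the difference was -0.97 (SE 0.33, adjusted p = 0.0198). Under quantile (-0.49) and median scaling (-0.54) Drd2 was not called. Drd1, the Gs and Golf coupled receptor of striatonigral neurons, was bright on both probe sets and not called. On 1456051_at its median was 977 in IP (556 to 1294) and 1035 in WB (851 to 1123), with a difference of -0.13 and a 95% interval from -0.48 to 0.21. On 1455629_at it was 402 in IP (241 to 1033) and 644 in WB (492.6 to 795), with a difference of -0.51 (SE 0.22, adjusted p = 0.0571). Whether Drd1 and Drd2 changed unequally was not tested.

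The Gi-coupled receptors Drd3 and Drd4 gave no call. The limbic receptor Drd3 differed by -0.07, and the 2 probe sets of Drd4 by 0.05 and 0.89. The larger value came from 1422830_s_at, an ID class of shared sequence, where 8 of the 9 IP arrays were above the WB median (adjusted p = 0.0744). Quantile (1.36) and median scaling (1.31) made it a higher call, and hybridization scaling turned it to -0.06. Among 7 measured markers of striatal projection neurons, which include Drd1 and Drd2, 1 was higher and 3 were lower, with a median of -0.26. Each gene was read on its brightest probe set, where 21.7% of all genes were called in each direction. Ppp1r1b, the phosphoprotein DARPP-32, differed by -2.60 (adjusted p = 1.48e-07), Penk, the enkephalin precursor, by -0.71 (adjusted p = 0.000169), and Pde10a, a striatal phosphodiesterase, by 1.56 (adjusted p = 4.13e-08). Pde10a was higher on 1 of its 5 probe sets and lower on the other 4, and Penk was not called under median scaling (-0.28), where the median of the list was 0.16. The mean log2 level of the striatal list was 9.25 to 9.99 in IP and 9.91 to 10.32 in WB, and its part in the dopamine receptor values was not tested.

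Adrenergic receptors were measured for 1 alpha-1 and 1 alpha-2 gene. Adra2c, a Gi-coupled receptor of striatum and hippocampus, had 4 probe sets, of which 1435296_at was called lower. Its IP median was 281 (150 to 467) and its WB median 489 (317 to 659), with all 9 IP arrays below the WB median and a difference of -0.63 (SE 0.21, adjusted p = 0.0174). The call ended under quantile (-0.28) and median scaling (-0.21) and in the mean over the 4 probe sets (-0.27, adjusted p = 0.282). On 1422335_at, 7 IP arrays lay below the lowest WB array, and the difference of -0.81 was not called (SE 0.35, adjusted p = 0.0624). The remaining probe sets of Adra2c differed by -0.04 and 0.40, the latter on 1439762_x_at at intensities of 3.27 to 44.4 in IP and 1.28 to 33.0 in WB. Adra1b, a Gq-coupled receptor, was not called (-0.06), with a median of 112 in IP (67.3 to 274) and 85.5 in WB (65.0 to 487). In the list of noradrenergic, dopaminergic and serotonergic neuron markers 0 of 8 were higher and 3 were lower, with a median of -0.43. Each gene was read on its brightest probe set, and 21.7% of all genes were called in each direction that way. Under quantile and median scaling 1 of the 8 was lower. Th, tyrosine hydroxylase, differed by -1.42 (adjusted p = 0.00132). In mean log2 level the list lay at 7.36 to 8.47 in IP and 8.19 to 8.49 in WB.

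Histamine receptors held the only gene of the 25 with a higher call and no lower one. Hrh2, the Gs-coupled histamine receptor, had a median of 475 in IP (360 to 985) and 330 in WB (116 to 467). Each of the 9 IP arrays was above the WB median and 5 were above the highest WB array. The difference was 0.82 (SE 0.25, adjusted p = 0.00936), higher under quantile and median scaling too (1.16 and 1.24), but it turned to -0.13 (adjusted p = 0.730) under hybridization scaling. Hrh2 had a single probe set, so no other could be set beside it. Hrh1, the Gq-coupled receptor that mediates much of the waking effect of histamine, gave -0.39 and 0.26 on its 2 probe sets, neither called. Hrh4, a receptor of blood cells, lay at 13.5 to 61.8 in IP and 9.71 to 42.0 in WB, with a difference of 0.02. The single marker of histaminergic neurons, Hdc, differed by 0.11 (adjusted p = 0.896), at dim mean log2 levels of 6.45 in IP and 6.35 in WB.

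Hrh3, the Gi-coupled receptor that acts as an autoreceptor on histaminergic neurons and on other terminals, fell into separate levels within IP. Its values were 215 to 285 in IP replicates 2, 5, 6 and 8 and 48.4 to 96.8 in the other 5, against 161 to 261 in WB. The 4 arrays with the high Hrh3 values are those with the brightest hybridization controls. Over all 9 IP arrays the difference was -0.63 (SE 0.31, adjusted p = 0.106), and without these 4 arrays it was -1.34 (adjusted p = 0.000116). The same 4 arrays lay below the other 5 for Htr6, at 12.6 to 99.5 against 134 to 293, where the difference without them was 1.05 (adjusted p = 0.0648). These were 1 member above and 1 below, where 1.84% and 1.88% of all probe sets separated so. For both genes, leaving out these 4 arrays had to move the difference in the direction seen. The differences and adjusted p-values without them therefore cannot speak for a change of Hrh3 or Htr6. Without these arrays Drd1 on 1455629_at was called lower (-0.89, adjusted p = 0.000190) and Drd4 on 1422830_s_at higher (1.33, adjusted p = 0.0134), while Chrm4 (-0.44), Htr1d (-0.79) and Htr1f (-0.47) lost their calls.

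Adora3, the Gi-coupled adenosine receptor known from mast cells and microglia, was the only adenosine receptor measured. Its IP medians were 45.8 and 24.5 and its WB medians 43.7 and 57.4, with overlapping groups. The differences of -0.06 and -0.56 were not called (adjusted p = 0.897 and 0.274).

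**Figure D2:**
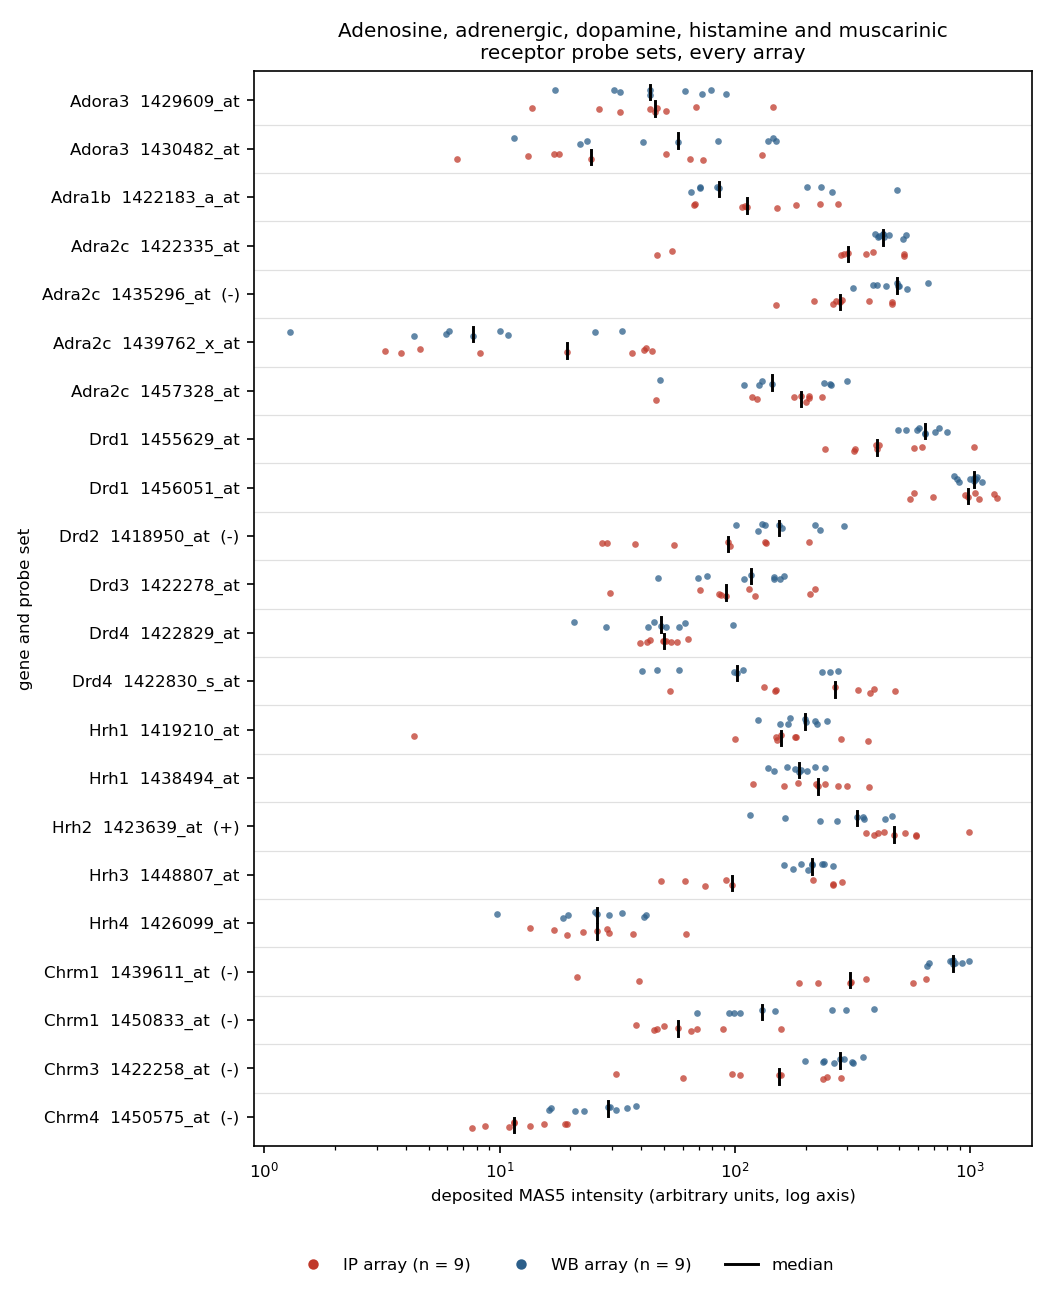
Deposited MAS5 intensity (log axis, arbitrary units) of the 22 probe sets of adenosine, alpha adrenergic, dopamine, histamine and muscarinic receptors on each of the 9 IP and 9 WB arrays, with the median of each group as a black bar; (+) and (-) mark calls in IP. Only the first Chrm1 probe set separates the groups without overlap, and the IP values of Hrh3 fall into a set of 4 and a set of 5 arrays.

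Because several genes had probe sets that moved apart, the probe sets of each gene were set against each other within an array, where any scaling that shifts a whole array on the log2 scale cancels. The 14 genes with several probe sets gave 21 pairs, chosen for testing after the values were seen. Unequal change was found for 2 pairs, in Htr2c and Htr1b, with exact two-sided permutation over all 48620 divisions of the 18 arrays and Benjamini-Hochberg adjustment over the 21 pairs. For Htr2c the log2 value of 1435513_at less that of 1450477_at was 1.67 to 5.97 in IP (median 3.14) and 0.00 to 0.64 in WB (median 0.38). The change of 2.98 had an exact p of 4.11e-05, the smallest the design allows, and an adjusted p of 0.000864. For Htr1b the value of 1422288_at less that of 1442077_at was -1.37 to 0.71 in IP and 0.19 to 1.62 in WB, a change of -1.21 (exact p = 0.000165, adjusted p = 0.00173). The next pair, in Adra2c (1422335_at less 1439762_x_at), gave -1.21 with an adjusted exact p of 0.0651, and the 3 pairs of Htr1d, 1 of Htr1f and 1 of Htr7 gave adjusted exact p-values from 0.125 to 0.735. For Chrm1, both of whose probe sets were called lower, the pair differed by -0.80 (adjusted exact p = 0.250).

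**Figure D3:**
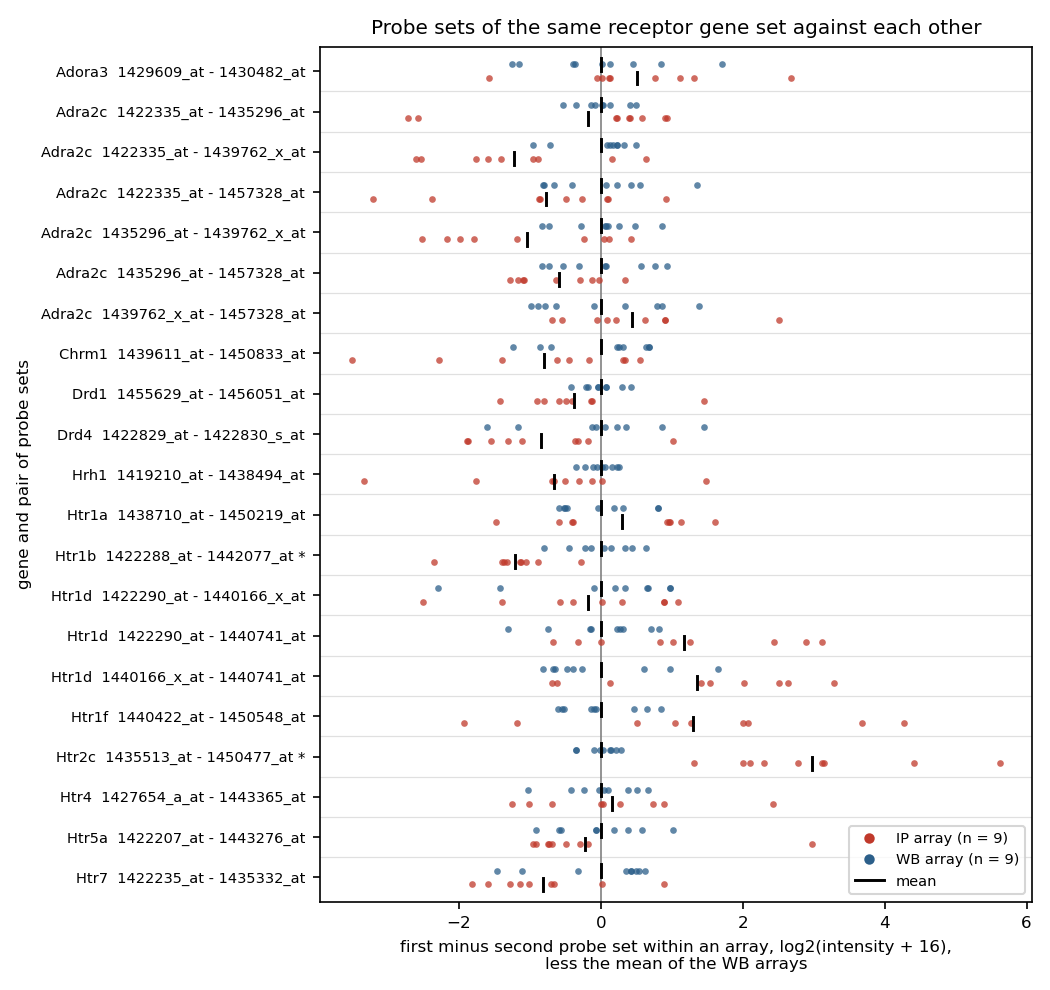
Difference between 2 probe sets of a gene within each array (first minus second, log2(intensity + 16), less the WB mean) for the 21 pairs, with 9 IP and 9 WB points and the group mean as a black bar; a star marks an adjusted exact p under 0.05. For Htr2c every IP array lies to the right of every WB array, and for Htr1b the IP arrays lie mostly to the left.

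Most of the calls depended on the scaling of the arrays. Of the 12 lower calls, 3 held under all 3. These were Htr2c on 1450477_at, Chrm1 on 1439611_at and Htr7 on 1422235_at, the last with medians under the olfactory receptor level in both groups. All 3 higher calls (Htr2c on 1435513_at, Htr1b on 1442077_at and Hrh2) held under quantile and median scaling, and each turned negative under hybridization scaling. The split of the calls moved from 3 higher and 12 lower to 7 and 3 (quantile), 6 and 3 (median) and 0 and 32 (hybridization). Over all probe sets the higher share of calls moved from 31.6% to 52.3%, 60.6% and 4.04%, and the median difference from -0.23 to 0.11, 0.20 and -1.17. The members' median moved alike, from -0.26 to 0.15, 0.16 and -1.21.

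**Figure D4:**
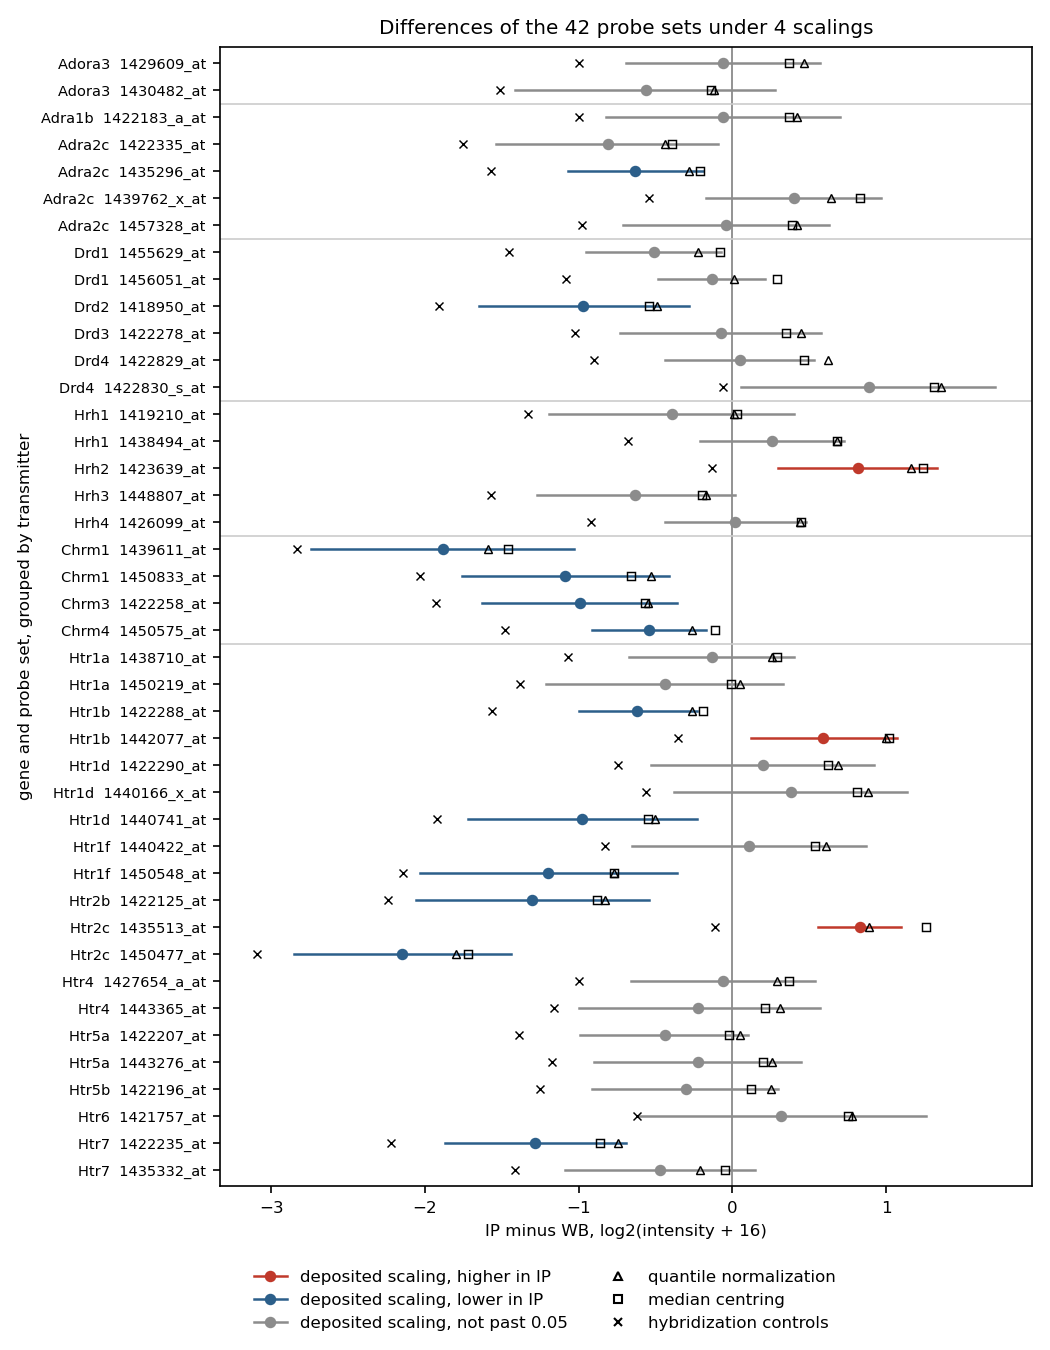
IP minus WB difference (log2(intensity + 16)) of the 42 probe sets grouped by transmitter, with 95% confidence intervals from limma under the deposited scaling and the value under 3 other scalings. Of the 15 called probe sets, those of Htr2c (1450477_at), Chrm1 (1439611_at) and Htr7 (1422235_at) stay called under all 4 scalings.

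The signalling proteins downstream of these receptors moved in both directions. Of 56 listed genes 55 were measured, each on its brightest probe set. The test called 16 of them higher and 17 lower, where 21.7% of all genes were called in each direction, and their median was 0.10 beside 0.00 for all genes. Most of these probe sets had a mean log2 value of 9 or more. In that range 34.5% of all probe sets were called higher and 33.3% lower, so the counts are no result about signalling genes as a class. Protein kinase A, the target of cyclic AMP, had 4 of 6 subunits higher and 0 lower on the brightest probe set, with a median of 0.93. Each of these 4 (Prkaca, Prkar1a, Prkar1b and Prkar2a) also had 1 probe set called lower, so the direction depends on the probe set. Hybridization scaling gave 2 and 1, with a median of -0.01. Prkaca, a catalytic subunit, differed by 2.02 (adjusted p = 1.55e-11) on the higher one. Among the 5 alpha subunits of Gi, Go and Gz, 1 was higher and 3 were lower. Gnaz, the alpha subunit of Gz, differed by -3.25 (SE 0.36, adjusted p = 7.12e-08), with both probe sets lower and the call held under all 3 other scalings (-3.03, -2.83 and -4.20). Gnal, the Golf subunit through which Drd1 signals in striatum, was higher (1.51, adjusted p = 7.35e-07), with 1 of its 3 probe sets higher and 1 lower. Gnas, the Gs subunit, was lower (-0.54, adjusted p = 0.00151), with 3 of its 5 probe sets lower and 0 higher, but was not called under median scaling (-0.12).

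Adenylyl cyclases gave 2 higher and 3 lower of 8, with Adcy6 lower by 1.59 (a difference of -1.59, adjusted p = 0.000139). Of 6 measured receptor kinases and arrestins, which switch receptors off, 0 were higher and 2 were lower, led by Arrb1, arrestin beta 1, at -2.63 (adjusted p = 4.49e-07). RGS proteins, which speed the return of G proteins to rest, gave 3 higher and 2 lower of 8, with Rgs16 at 2.17 (adjusted p = 1.15e-05). Gng4, a gamma subunit, differed by 2.07 (adjusted p = 2.34e-09) on 1 of 3 probe sets while another was lower. Phospholipase C beta, the target of Gq, gave 0 higher and 1 lower of 4, and the GIRK potassium channels opened by Gi-coupled receptors gave 1 and 1 of 3. The directions of Gnaz, Adcy6, Arrb1, Rgs16, Gng4 and Prkaca held with their calls under the 3 other scalings. Over the whole list quantile scaling called 17 higher and 15 lower, median scaling 24 and 10 and hybridization scaling 8 and 34.

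Markers of general cell classes were read on the brightest probe set of each gene, beside the same 21.7% of all genes in each direction. Neuronal markers gave 3 higher and 2 lower of 5, with a median of 0.56. Quantile scaling turned these counts to 1 and 3 with a median of -0.50, and hybridization scaling to 1 and 3 with a median of -0.38. Of the 3 higher genes, Rbfox3 and Map2 each had 2 further probe sets called lower. Astrocyte markers gave 2 and 2 of 5, oligodendrocyte markers 1 and 1 of 3 and microglial markers 1 and 2 of 4. Of the higher genes in these lists, Aqp4 was lower on 2 of its 3 probe sets, Gfap on 1 of 3 and Mbp on 4 of 8. Csf1r had 0 of 3 lower. Endothelial and mural markers gave 0 higher and 2 lower of 4 (median -0.67), and blood 0 and 1 of 2 (median -2.06). For orexin neurons they were 1 and 1 of 5. The mean log2 level of the orexin list was 7.79 to 8.86 in IP and 7.91 to 8.68 in WB. The part of these cell types in the receptor values was not tested.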

How the data were processed

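Expression was measured on 18 arrays (9 IP, 9 WB). The authors deposited linear MAS5 intensities (the tool named by the submitters' processing notes, its version not given in the sources used here), scaled so that the mean of each array with 2% trimmed at both ends lay near 500. An input of 5 ng RNA was amplified, per the labels' protocols. Groups came from the labels. After adding 16 and taking log2, the 45037 probe sets that are not array controls (64 left out) were fitted with limma 3.58.1 in R 4.3.3 (empirical Bayes with an intensity trend, Benjamini-Hochberg adjustment). No filter was applied. Symbols came from the platform annotation, and all 42 member probe sets matched the reference gene table by Entrez ID, with 0 renamed. The members and lists were chosen with earlier results of these data known. Named in full were Htr1a and Chrm3, up to 3 rises and 3 falls per transmitter class and 1 further probe set of each class chosen by its WB mean; other members are given by call and value. Downstream and marker genes named are Hcrt and up to 3 rises and 3 falls per list, with Gnal, Gnas, Prkar1a, Prkar1b, Prkar2a and Hdc added after their values were seen. Probe sets of a gene were compared by exact permutation, a test added after the values were seen. Arrays limit precision by their number. In simulated data for this comparison (45037 probe sets, 200 changed) limma recovered 12 of 50 changes of 0.5, 37 of 50 of 1, 49 of 50 of 2 and 50 of 50 of 4 (log2), with 8 false calls, using the WB spread. The IP spread was wider, with a median SD over all probe sets of 0.74 against 0.34 in WB. In the data 45.0% of all probe sets were called. The simulated counts therefore do not measure recovery in these data. Alternatives were pseudocounts of 1 and 64, 3 scalings, a brightness filter, no trend, array weights, a replicate block, leaving out arrays and the mean over probe sets. The labels do not say whether an IP and a WB array with the same replicate number belong together, and the main fit treated them as unpaired. Leaving out IP replicates 2, 5, 6 and 8 together was chosen after the data were seen.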

Additional observations from a re-analysis of the deposited data

Results flagged for a closer look

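Within a group of 9 arrays, a lowest or highest value that stood far from its neighbour was looked for in the 42 probe sets and both groups. Of these 84 sets of 9 values 5 (5.95%) were marked, all in IP, where chance marks about 1 in 20. Adra2c on 1457328_at was 46.0 in IP replicate 2, with the next value at 118. Htr1d on 1422290_at was 15.5 in the same array, with the next at 94.9, and Htr5a on 1443276_at was 18.5, with the next at 94.4. Hrh1 on 1419210_at was 4.34 in IP replicate 5, with the next at 99.8. Hrh2 was 985 in IP replicate 6, with the next at 587, and without that array its difference was still called. IP replicate 2 held the lowest IP value of 13 of the 42 probe sets and the highest of 9.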

How the results depend on the processing

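Over the 42 probe sets the calls of 3 higher and 12 lower became 7 and 3 under quantile scaling, 6 and 3 under median scaling and 0 and 32 under hybridization scaling; over all probe sets the higher calls became 10869, 12802 and 1297, and the lower ones 8322 under median and 30824 under hybridization scaling. Why the arrays differ in the levels that these scalings set equal was not tested. Leaving out 1 array gave 2 to 3 higher and 11 to 14 lower calls. The replicate block gave 3 and 12, as did both other pseudocounts and the fit without a trend. The block changed no call. Deviations of IP and WB arrays with the same number correlated at -0.05 to 0.08. Of the 9 IP arrays 2 were closest to the WB array of their own number. These values showed no pairing but cannot exclude it, because the IP spread was wide and the mouse behind each array is not given. Array weights gave 3 and 15, and the filter on brightness kept 24 of the 42 probe sets with 3 and 9 calls.

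Quantile and median scaling changed the sign of uncalled differences only. Hybridization scaling turned every positive difference, among them the higher calls of Hrh2, Htr1b and Htr2c. Median and hybridization scaling each shift the differences of all probe sets by the same amount. For Htr2c, 0.83 and -2.15 became 1.26 and -1.72 under median scaling and -0.11 and -3.09 under hybridization scaling. Quantile and median scaling gave, in that order, 0.47 and 0.37 for Adora3 (1429609_at), 0.42 and 0.37 for Adra1b, 0.42 and 0.39 for Adra2c (1457328_at), 0.01 and 0.29 for Drd1 (1456051_at), 0.45 and 0.35 for Drd3, 0.01 and 0.03 for Hrh1 (1419210_at), 0.26 and 0.29 for Htr1a (1438710_at), 0.29 and 0.37 for Htr4 (1427654_a_at), 0.31 and 0.21 for Htr4 (1443365_at), 0.26 and 0.20 for Htr5a (1443276_at) and 0.25 and 0.12 for Htr5b. Quantile scaling alone turned Htr1a (1450219_at) and Htr5a (1422207_at), both to 0.05. Hybridization scaling turned Adra2c (1439762_x_at) to -0.54, Drd4 to -0.90 (1422829_at) and -0.06 (1422830_s_at), Hrh1 (1438494_at) to -0.68, Hrh2 to -0.13, Hrh4 to -0.92, Htr1b (1442077_at) to -0.35, Htr1d to -0.74 (1422290_at) and -0.56 (1440166_x_at), Htr1f (1440422_at) to -0.83, Htr2c (1435513_at) to -0.11 and Htr6 to -0.62. Array weights gave -0.02 for Drd4 (1422829_at) and -0.01 for Htr1f (1440422_at), and a pseudocount of 64 gave 0.02 for Htr4 (1427654_a_at).

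Without IP replicates 2, 5, 6 and 8, Adora3 (1429609_at) was 0.04, Adra2c (1457328_at) 0.09, Drd3 0.30, Drd4 (1422829_at) -0.02, Htr1f (1440422_at) -0.36 and Htr5a (1443276_at) 0.03. As means over probe sets, Adra2c was -0.27, Hrh1 -0.07, Htr1b -0.01, Htr1d -0.13, Htr1f -0.54 and Htr2c -0.66. Leaving out 1 array moved Adora3 (1429609_at) from -0.23 to 0.07, Adra1b from -0.18 to 0.16, Adra2c (1457328_at) from -0.22 to 0.14, Drd3 from -0.20 to 0.10, Drd4 (1422829_at) from -0.05 to 0.15, Hrh4 from -0.09 to 0.09, Htr1f (1440422_at) from -0.01 to 0.39, Htr4 (1427654_a_at) from -0.23 to 0.06 and Htr5a (1443276_at) from -0.34 to 0.03. Dim signal limits 17 of the 42 probe sets, whose medians lay under the olfactory receptor level in both groups. It also limits the 9 whose medians lay above that level only in WB, since their IP signal was dim.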

Other observations

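The annotation names the sequence each probe set was drawn from, and the members were divided by it after their values were seen, so no test is given. The 20 members drawn from RefSeq transcripts had a median difference of -0.58, and the 6101 such probe sets over the whole array -0.23. The 15 members drawn from expressed sequence tags had a median of -0.13, and the 17382 such probe sets -0.17. In Htr2c and Htr1b the RefSeq probe set was the lower one (-2.15 and -0.62) and the expressed sequence tag probe set the higher one (0.83 and 0.59). The RefSeq probe set was also the lower one in Htr1f (-1.20 against 0.11) and Htr7 (-1.28 against -0.47). So it was in Htr1a (-0.44 against -0.13) and Htr5a (-0.44 against -0.22). In Adra2c the RefSeq probe set differed by -0.81 and the expressed sequence tag ones by -0.63, -0.04 and 0.40. Chrm1 went the other way, with -1.88 on the expressed sequence tag probe set and -1.09 on the RefSeq one. Htr1d was mixed, with -0.98 and 0.38 on expressed sequence tag probe sets and 0.20 on the RefSeq one.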
